A study of Mus musculus with 6 samples.

Results

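The genes described here are the transcription factor gene Trp63, which encodes p63, and 9 genes of squamous differentiation: Bnc1, Ivl, Sprr1a, Sprr1b, Sprr2f, Sprr3, Tgm1, Scel and Dsg3. They were taken by name, through the RefSeq transcript that the array design gives for each probe, and 14 probes matched these 10 genes, out of 34566 named probes for 23787 genes on the array. Expression was measured on 6 Agilent 1-colour arrays, each with RNA from 1 culture of mouse fallopian tube organoids, hollow spheres of oviduct epithelium grown in matrix. The tumour-derived organoids were re-grown from subcutaneous lesions of inoculated organoids with Trp53 loss and Pik3caH1047R, an activated PI3-kinase subunit (lesion histology adenocarcinoma), or with Trp53 loss and Apc580D, an allele of the Wnt antagonist gene Apc (lesion histology cyst). The organoids before inoculation had the same genotypes, Pik3caH1047R with Trp53 loss and Apc580D with Trp53 loss, or Trp53 loss alone. The control was derived from Trp53flox/flox mice and carried the empty vector pLKO.1. All cultures were female fallopian tube and, per the labels, were grown without serum in the presence of CHIR-99021 (a GSK3 inhibitor that switches on Wnt signalling), Jagged-1, Noggin, R-spondin1, EGF and the ROCK inhibitor Y27632. The labels do not give the animals' age or strain, how many mice or lesions stood behind a culture, or how the alleles were activated. Each of the 6 groups is 1 array, and a difference between 2 arrays is therefore given with neither a replicate spread nor a p-value.

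p63 is a relative of p53 that keeps the basal cells of stratified epithelia such as skin, oesophagus and cervix, and as a rule it is not a marker of the simple secretory and multiciliated epithelium of the oviduct. Cells that leave the basal layer build a cornified envelope under the plasma membrane: envoplakin, periplakin and involucrin (Ivl) are laid down first, small proline-rich proteins (the Sprr genes), loricrin and sciellin (Scel) are added, and transglutaminases such as Tgm1 cross-link them. Desmoglein 3 (Dsg3) is a desmosomal cadherin of the basal layers, and basonuclin 1 (Bnc1) is a zinc finger protein of basal keratinocytes and germ cells. The Sprr genes, Ivl, loricrin and the late envelope genes lie together in the epidermal differentiation complex, and Sprr1a is also known as an injury-induced gene in nerve, heart and gut.

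Between 45.44% and 50.95% of the 56605 probes of an array were well above background, no spot was saturated, and all arrays lay on 1 slide read in 1 scan. Both tumour-derived arrays and the control lay in slide row 2, and the arrays before inoculation lay in row 1, so slide row cannot be told apart from tumour origin or from Trp53 loss. The Trp53 probe had a log2 level of -1.05 in the Pik3ca/Trp53 tumour-derived array and -2.99 in the Apc/Trp53 array before inoculation, both well above background, against 1.46 in control, and it was not well above background on the other 3 arrays with Trp53 loss. The sources used here do not say whether this probe lies in the deleted exons, so these levels do not settle the genotype of the arrays. Of 9 markers of oviduct epithelium, 8 or 9 were well above background on every array. Levels throughout are log2 of the processed signal minus the array's 75th percentile over probes, so 0 is a bright gene; they compare 1 probe across arrays and never 1 probe with another. The lowest level that counted as well above background lay between -4.30 and -3.63, and probes with 10 copies on an array varied between copies with a median SD of 0.04 to 0.08.

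**Figure D1:**
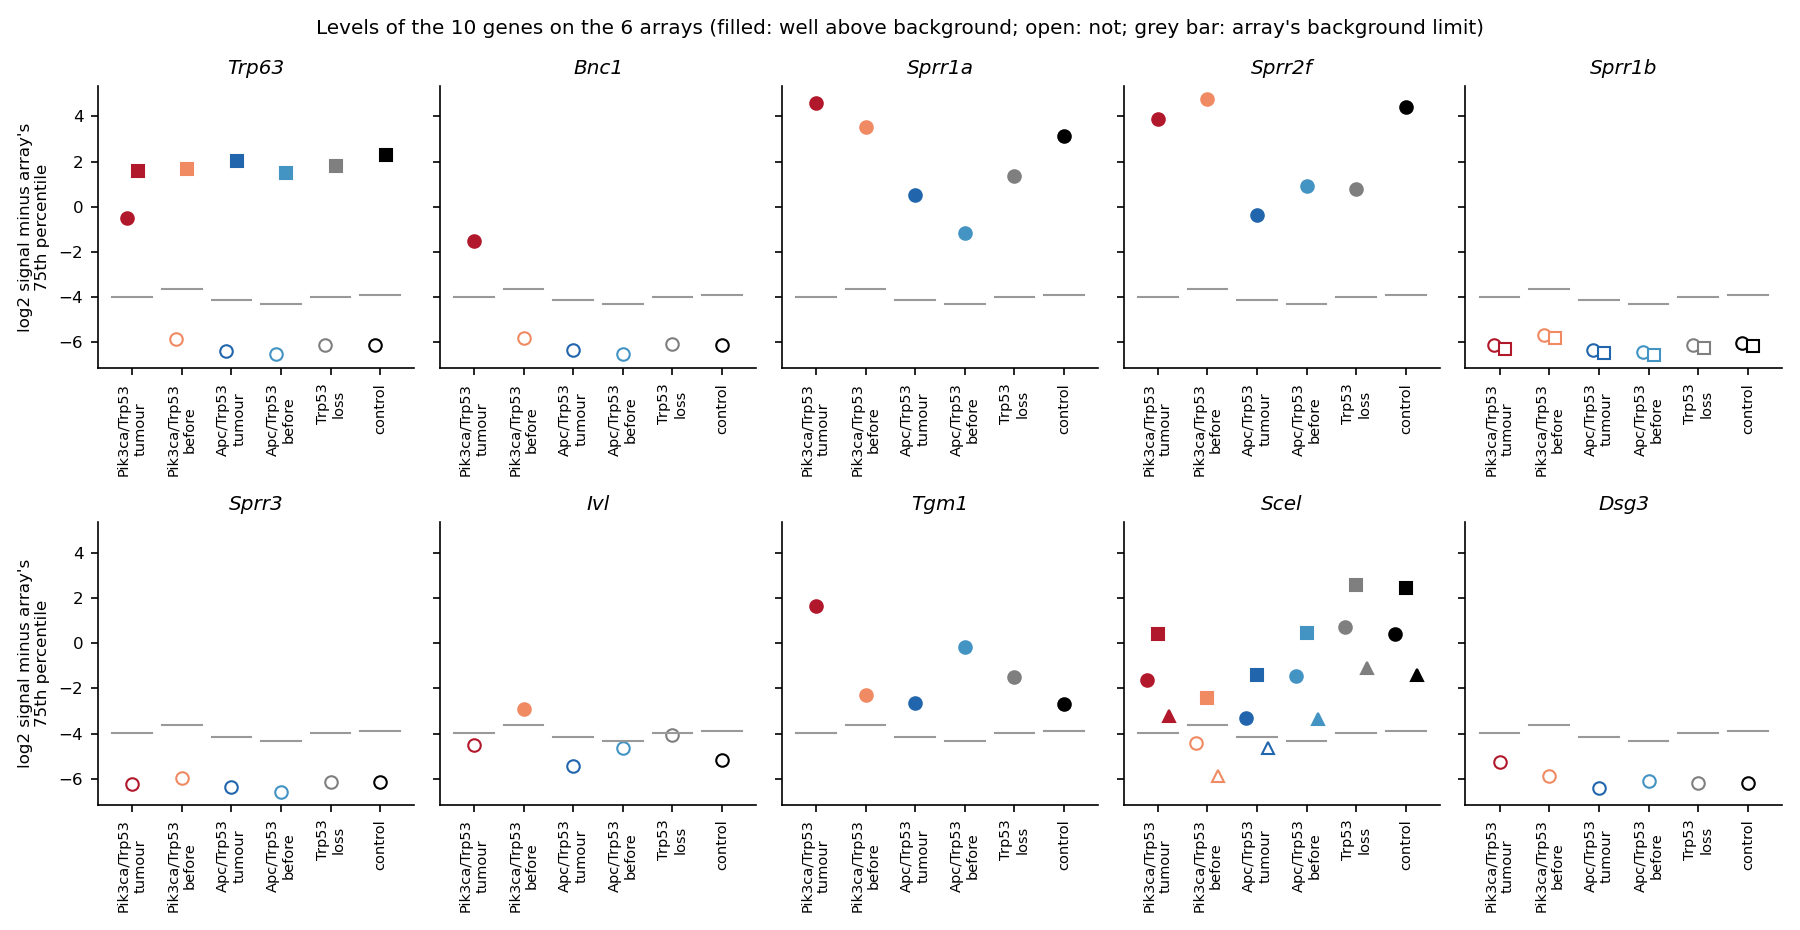
Levels of the 10 genes on the 6 arrays (y axis: log2 processed signal minus the array's 75th percentile; x axis: arrays, each tumour-derived array left of its source). Each marker shape is 1 probe of the gene, filled where well above background and open where not, and grey bars mark each array's background limit. 1 probe each of Trp63 and Bnc1 is filled only in the Pik3ca/Trp53 tumour-derived array, while Sprr1b, Sprr3 and Dsg3 are open on all 6.

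Of the regulators, Trp63 gave 2 readings that did not match each other. Its probe A_51_P216550, designed to transcript NM_011641, stood at -0.50 in the Pik3ca/Trp53 tumour-derived organoids, against -5.87 in the same genotype before inoculation. It stood at -6.37 in the Apc/Trp53 tumour-derived organoids, -6.50 in Apc/Trp53 before inoculation, -6.10 with Trp53 loss and -6.09 in control. This probe was therefore well above background on a single array, and the signal there was at least 8.77-fold higher than before inoculation and at least 12.4-fold higher than in the Apc/Trp53 tumour-derived organoids, as bounds set by the background limit of the dimmer array. The other Trp63 probe, A_55_P2161055 (transcript NM_001127261), was well above background on all 6 arrays, at 1.59 in Pik3ca/Trp53 tumour-derived and 1.69 before inoculation, 2.03 in Apc/Trp53 tumour-derived and 1.48 before, 1.79 with Trp53 loss and 2.28 in control. Its whole range of 0.80 log2 units stayed under 2-fold. The 4 lowest arrays (Trp53 loss, both Pik3ca/Trp53 arrays and Apc/Trp53 before) differed between neighbours in the order of levels by less than 2 SD of spot copies. RefSeq lists several Trp63 transcripts, and which of them each probe detects was not analysed here. Because the probes disagree, the mean over both, 2.63 log2 units higher in the Pik3ca/Trp53 tumour-derived organoids than before, has a between-probe SD of 3.87 and describes neither.

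Bnc1 had the same on-or-off pattern as the first Trp63 probe. Its level was -1.50 in the Pik3ca/Trp53 tumour-derived organoids, against -5.82 before inoculation, -6.34 in Apc/Trp53 tumour-derived, -6.50 in Apc/Trp53 before, -6.06 with Trp53 loss and -6.12 in control. Only the first of these was well above background, and it was at least 4.39-fold higher than before inoculation and at least 6.21-fold higher than in the Apc/Trp53 tumour-derived organoids. Altogether 514 of the 23787 named genes were well above background, on any of their probes, in the Pik3ca/Trp53 tumour-derived array only. The same count was 410 for the Apc/Trp53 tumour-derived array, 118 for Pik3ca/Trp53 before inoculation and 121 for Apc/Trp53 before. It was 162 for Trp53 loss and 203 for control. The 514 genes are 2.16% of the named genes. They include Bnc1 but not Trp63, whose second probe was detected on every array. By probe, 700 of 34566 named probes (2.03%) were above background in the Pik3ca/Trp53 tumour-derived array only, the first Trp63 probe and that of Bnc1 among them.

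Among the envelope precursors, Sprr1a was well above background on all 6 arrays. Its level was 4.58 in Pik3ca/Trp53 tumour-derived organoids and 3.52 in the same genotype before inoculation. It was 0.54 in Apc/Trp53 tumour-derived organoids and -1.15 before inoculation. It was 1.37 with Trp53 loss and 3.15 in control. The levels spanned 5.73 log2 units, both Pik3ca/Trp53 arrays lay above control and both Apc/Trp53 arrays lay below Trp53 loss, and each step in the order of levels was larger than 2 SD of spot copies.

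Sprr2f, a small proline-rich gene known from mouse uterus as oestrogen-responsive, followed a like split. It stood at 3.89 in Pik3ca/Trp53 tumour-derived organoids against 4.77 before inoculation. It stood at -0.35 in Apc/Trp53 tumour-derived organoids against 0.90 before. With Trp53 loss it was 0.80, against 4.43 in control. The 3 high arrays (both Pik3ca/Trp53 arrays and control) were separated by a gap of 2.99 log2 units from the 3 low ones, and among the low ones Apc/Trp53 before inoculation and Trp53 loss lay within the spread between copies. The small proline-rich genes of the Sprr2 branch are near-identical copies, so signal of one can reach the probe of another and the identity of each is uncertain. The 5 other Sprr2 genes detected on 4 or more arrays with a level that varied (Sprr2a3, Sprr2b, Sprr2d, Sprr2g and Sprr2k, singled out after their values were seen) were each higher in Pik3ca/Trp53 before inoculation than in Trp53 loss and lower in Trp53 loss than in control. Sprr2a3, for example, was at 4.04 in Pik3ca/Trp53 before inoculation, 0.28 with Trp53 loss and 3.21 in control, and Sprr2g was at 2.53, -0.88 and -0.03 in these 3. Sprr2b, Sprr2g and Sprr2k were higher on both Pik3ca/Trp53 arrays than on both Apc/Trp53 arrays, like Sprr2f. Sprr2a3 and Sprr2d did not share this split. In the tumour-derived organoids Sprr2a3 was at 3.14 in Apc/Trp53 and 2.64 in Pik3ca/Trp53, and Sprr2d at -2.69 and -3.91. All 5 were lower in the Pik3ca/Trp53 tumour-derived organoids than in their source, as Sprr2f was and Sprr1a was not. Sprr2a2 was the exception, with levels between 8.05 and 8.30 on all 6 arrays.

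Sprr1b and Sprr3 were not well above background on any array. The 2 Sprr1b probes lay between -6.57 and -5.67 and the Sprr3 probe between -6.59 and -5.96. Ivl was well above background on 1 array only, Pik3ca/Trp53 before inoculation, at -2.90. It was at -4.49 in the Pik3ca/Trp53 tumour-derived organoids, -5.44 in Apc/Trp53 tumour-derived, -4.65 in Apc/Trp53 before, -4.05 with Trp53 loss and -5.17 in control, all below the limit. The Pik3ca/Trp53 signal before inoculation was thus at least 2.12-fold higher than with Trp53 loss and at least 2.11-fold higher than in the tumour-derived organoids.

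The promoter windows of 4 of these precursors are shown because Sprr1a and Sprr2f, detected on all 6 arrays, and Sprr1b and Ivl, detected on none or 1, share 2 short motifs. The windows run from 250 bases before to 50 after the RefSeq start site, in build GRCm38.p6, 5′ to 3′ on the gene's strand, with matches to TGANTCA, the binding motif of AP-1 (Fos and Jun dimers), and to TATAAA, the TATA box, in capitals.
Sprr1a, chr3:92485832-92486131, minus strand: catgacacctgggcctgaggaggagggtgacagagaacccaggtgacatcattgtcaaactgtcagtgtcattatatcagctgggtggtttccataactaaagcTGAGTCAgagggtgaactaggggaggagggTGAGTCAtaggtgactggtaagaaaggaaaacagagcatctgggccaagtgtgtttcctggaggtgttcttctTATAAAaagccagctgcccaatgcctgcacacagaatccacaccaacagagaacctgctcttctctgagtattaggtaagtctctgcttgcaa
Sprr2f, chr3:92364937-92365236, plus strand: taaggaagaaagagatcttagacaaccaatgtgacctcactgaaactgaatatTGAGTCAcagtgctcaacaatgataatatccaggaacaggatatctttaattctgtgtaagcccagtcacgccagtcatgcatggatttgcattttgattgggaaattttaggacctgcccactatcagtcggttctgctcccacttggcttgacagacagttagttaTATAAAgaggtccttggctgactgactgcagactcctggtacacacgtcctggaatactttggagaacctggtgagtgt
Sprr1b, chr3:92438730-92439029, minus strand: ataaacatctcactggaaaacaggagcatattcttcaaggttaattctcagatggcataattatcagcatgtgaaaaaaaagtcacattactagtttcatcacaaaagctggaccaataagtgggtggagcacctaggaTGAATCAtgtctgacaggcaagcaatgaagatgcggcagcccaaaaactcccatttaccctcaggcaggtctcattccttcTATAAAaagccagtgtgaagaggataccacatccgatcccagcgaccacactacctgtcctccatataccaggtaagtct
Ivl, chr3:92573686-92573985, minus strand: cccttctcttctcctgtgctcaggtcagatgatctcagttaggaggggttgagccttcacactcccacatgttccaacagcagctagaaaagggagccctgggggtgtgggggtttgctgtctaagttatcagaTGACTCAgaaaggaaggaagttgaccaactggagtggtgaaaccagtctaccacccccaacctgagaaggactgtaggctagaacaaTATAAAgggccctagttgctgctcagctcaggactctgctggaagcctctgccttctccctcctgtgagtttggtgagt
Windows were listed for 8 of the 10 genes, and Trp63 and Dsg3 are named only. On either strand, TGANTCA was found in the windows of Sprr1a (first base at -146 and -116 from the start site), Sprr2f (-197), Sprr1b (-111), Ivl (-116) and Scel (-36), 5 of 8 genes, against 7.81% of all 32851 windows. TATAAA was found in 5 of 8 (Sprr1a, Sprr2f, Sprr1b, Sprr3 and Ivl, at -43, -29, -30, -33 and -29), against 13.6% of all windows. The windows of Bnc1 and Tgm1 held neither. A loose core of p53-family sites, CNNG followed after 6 bases by another CNNG, was in 4 of 8 (Bnc1, Ivl, Tgm1 and Scel) and in 70.2% of all windows. Of 10 Sprr2 genes with a window, 7 held TGANTCA. The Sprr2f window was 74.8% identical to that of Sprr2e, the closest, and 47.2% to that of Sprr1a. It was no closer to the windows of Sprr2a1 and Sprr2a2 (46.9% each) and Sprr2a3 (45.3%). Of the 4 genes with both capitalised motifs, 2 were well above background on all 6 arrays, Ivl on 1 and Sprr1b on none. A match is a run of letters and shows no binding.

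**Figure D2:**
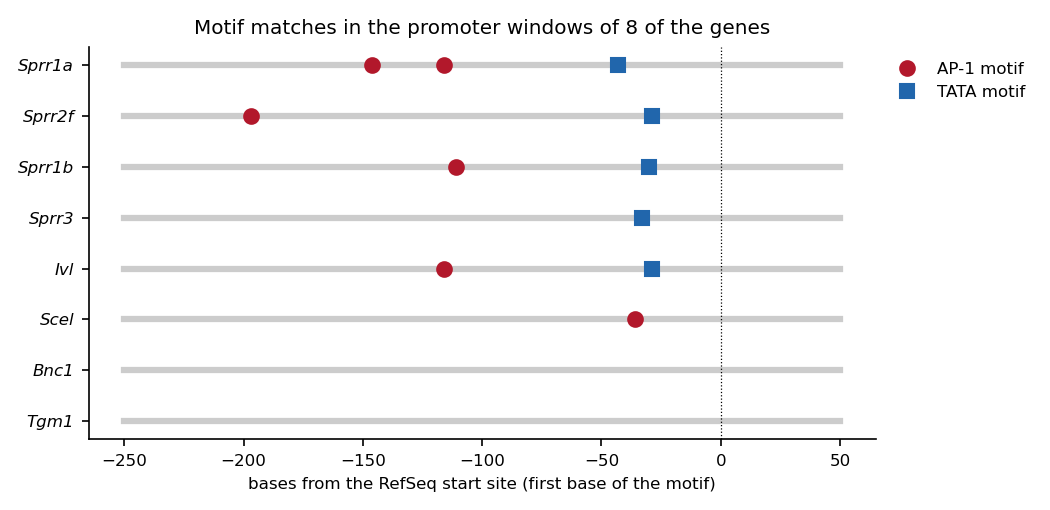
Positions of AP-1 and TATA motif matches (x axis: bases from the RefSeq start site) in the promoter windows of 8 of the 10 genes, 1 row per gene. 4 genes hold both motifs, Sprr3 holds only the TATA motif, Scel only the AP-1 motif, and Bnc1 and Tgm1 neither.

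Tgm1, the cross-linking enzyme of the envelope, was well above background on all 6 arrays. It stood at 1.65 in the Pik3ca/Trp53 tumour-derived organoids, against -2.31 before inoculation. It stood at -2.64 in the Apc/Trp53 tumour-derived organoids, against -0.16 before. It was -1.47 with Trp53 loss and -2.68 in control. The Pik3ca/Trp53 tumour-derived array was the highest and Apc/Trp53 before inoculation the next, 1.81 log2 units below it, while Apc/Trp53 tumour-derived and control lay within the spread between copies of each other. The late envelope genes Lce3b, Lce3c and Lce3d (chosen after their values were seen) were also high in Apc/Trp53 before inoculation (1.68, 3.17 and 2.64). They were lower in its tumour-derived organoids (-1.03, 0.19 and -0.11). Unlike Tgm1 they were low in the Pik3ca/Trp53 tumour-derived organoids (-1.42, -0.10 and -0.49), against 0.22, 1.97 and 1.38 before. Other envelope genes did not share this pattern. Lce1a2 ranged only from 0.80 to 1.12 and Lce1l from -3.83 to -2.92, and Lor was at 2.1 in Apc/Trp53 tumour-derived organoids against 2.7 before.

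**Figure D3:**
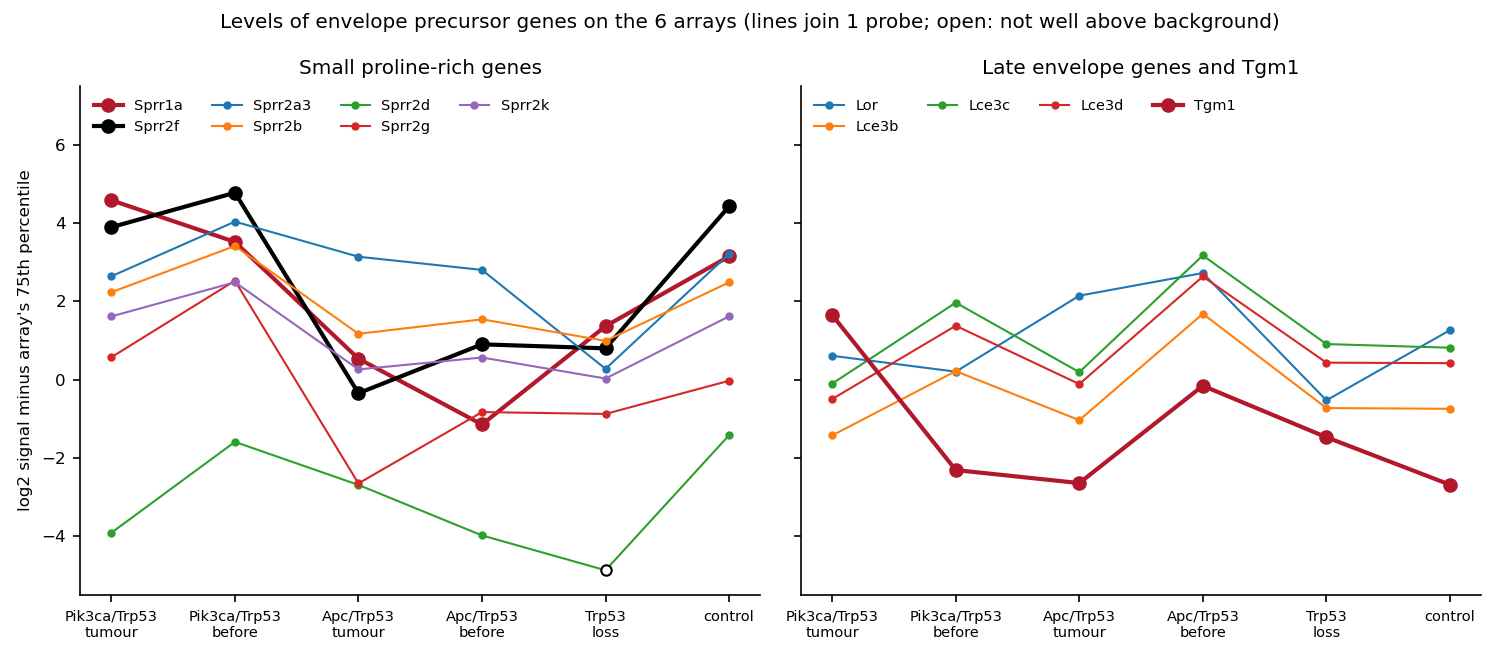
Levels of small proline-rich genes (left) and of loricrin (Lor), Lce3 genes and Tgm1 (right) on the 6 arrays (y axis: log2 processed signal minus the array's 75th percentile). Each line joins the values of 1 probe, and the open point is not well above background. Sprr1a is at 4.58 and Tgm1 at 1.65 in the Pik3ca/Trp53 tumour-derived array, where the 5 thin-line Sprr2 probes lie below their level before inoculation.

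Scel has 3 probes, and their patterns ran in parallel. On the brightest, A_55_P1983858, the level was 0.39 in Pik3ca/Trp53 tumour-derived organoids and -2.40 before inoculation. It was -1.43 in Apc/Trp53 tumour-derived organoids and 0.45 before. It was 2.58 with Trp53 loss and 2.44 in control, the 2 highest, which lay within the spread between copies of each other. The other 2 probes were not well above background in Pik3ca/Trp53 before inoculation, and 1 of them was not in Apc/Trp53 tumour-derived either. Dsg3 was not well above background on any array. Its level was -5.27 in the Pik3ca/Trp53 tumour-derived organoids, -5.88 before inoculation, and between -6.40 and -6.10 on the other 4.

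**Figure D4:**
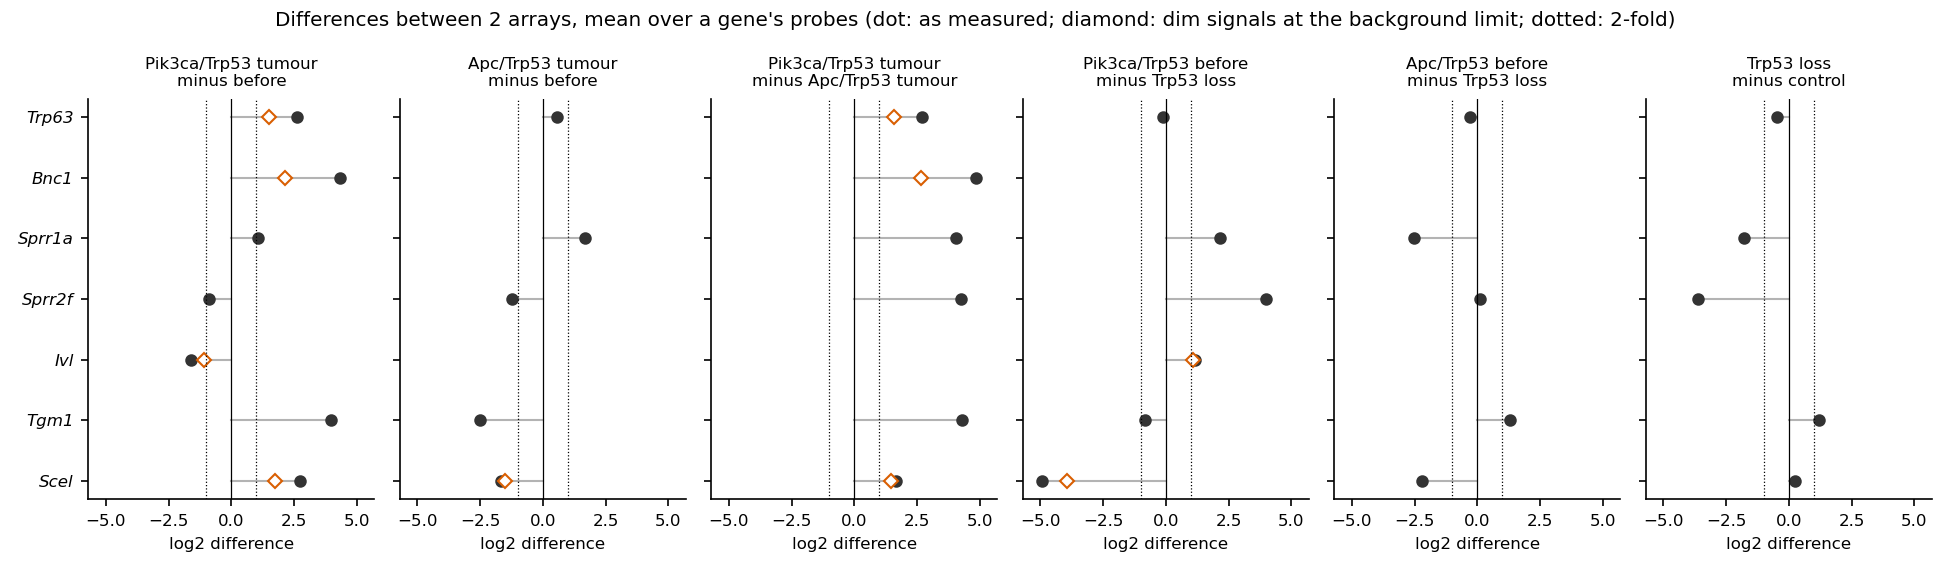
Log2 differences (x axis) of the 7 genes detected on either array, in 6 comparisons of 2 arrays. Dots are means over a gene's probes as measured, diamonds use the background limit for dim signals, and dotted lines mark 2-fold. All 6 genes measured between the tumour-derived arrays lie to the right of 2-fold, Trp63 as the mean of 2 probes that disagree. Bnc1 and 1 Trp63 probe were detected there in Pik3ca/Trp53 only. Tgm1 and Scel lie on opposite sides in the 2 pairs.

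The first pair of comparisons asks what differed in organoids re-grown from a lesion. For Pik3ca/Trp53, 7 of the 10 genes were measured (well above background on either array), and 5 were at least 2-fold higher in the tumour-derived organoids: Trp63 (1 of 2 probes), Bnc1, Sprr1a, Tgm1 and Scel. Ivl was at least 2-fold lower. Bnc1, Ivl and the first Trp63 probe were detected on only 1 of the 2 arrays, which fixed their direction. Among all 14727 genes measured, 14.5% were 2-fold higher and 10.6% lower, 25.1% together. Tgm1 was 15.5-fold higher (log2 difference 3.96), and Scel was 6.68-fold higher as a mean over 3 probes (2.74, SD between probes 0.09) and at least 3.34-fold with dim signals at the limit. Sprr1a was 2.09-fold higher (1.06) and Sprr2f 1.84-fold lower (-0.88). These 2 values lay close to the 2-fold line, and scaling to array medians moved them to 0.94 and -1.01. With only probes well above background on both arrays, 3 genes were 2-fold higher and none lower, since Bnc1, Ivl and the first Trp63 probe then had no value and Trp63 stood at -0.10. Normexp background correction put Tgm1 at 3.04, Bnc1 at 1.40, Scel at 1.01, Ivl at -0.49 and the mean of both Trp63 probes at 0.93.

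For Apc/Trp53, 5 genes were measured, and 1, Sprr1a, was at least 2-fold higher in the tumour-derived organoids (3.21-fold, 1.68). Lower were Tgm1 (5.6-fold, -2.49), Scel (3.18-fold, -1.67) and Sprr2f (2.37-fold, -1.25). Among all 14888 genes, 11.1% were 2-fold higher and 8.23% lower, and the share of higher ones among genes past 2-fold was 57.3%, but 37.5% when arrays were scaled to their medians. Tgm1 and Scel thus differed in opposite directions in the 2 pairs, while Sprr1a was higher and Sprr2f lower in the tumour-derived organoids of each. With normexp background correction Tgm1 was at -1.65, and Scel at -0.96 and Sprr2f at -0.99 were just inside 2-fold.

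Between the tumour-derived organoids, 6 genes were measured, and Bnc1, Sprr1a, Sprr2f, Tgm1, Scel and 1 of 2 Trp63 probes were at least 2-fold higher in Pik3ca/Trp53 than in Apc/Trp53, against 16.9% of 15289 genes 2-fold higher and 15.7% lower. Tgm1 was 19.6-fold higher (4.29), Sprr2f 18.9-fold (4.24), Sprr1a 16.5-fold (4.05), and Scel 3.12-fold (1.64). The bounds for Bnc1 and the first Trp63 probe are given above, and the second Trp63 probe was 1.36-fold lower (-0.45). Bnc1 and the first Trp63 probe were measured only through their signal in Pik3ca/Trp53, so they could come out only as higher. With only probes well above background on both arrays, Bnc1 had no value and Trp63 stood at -0.45. Normexp correction put Tgm1 at 3.29, Bnc1 at 1.39, Scel at 0.94 and the mean of both Trp63 probes at 0.94.

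Before inoculation, the comparison with Trp53 loss alone asks what Pik3caH1047R or Apc580D adds. With Pik3caH1047R, 6 genes were measured, and 3 were at least 2-fold higher, against 9.03% of 14237 genes. They were Sprr2f (15.7-fold, 3.97), Sprr1a (4.44-fold, 2.15) and Ivl (at least 2.12-fold). Ivl was measured only through its signal with Pik3caH1047R, so it could come out only as higher. Scel was lower on all 3 probes, by 31.0-fold as measured (-4.95) and by at least 15.5-fold with dim signals at the limit, against 8.67% of genes 2-fold lower. Tgm1 was 1.79-fold lower (-0.84). Normexp correction put Scel at -2.59, smaller than the bound without it, and Ivl at 0.38. With Apc580D, 5 genes were measured. Tgm1 was 2.49-fold higher (1.31; 0.95 with normexp), against 5.27% of 14463 genes, and Sprr1a (5.7-fold, -2.51) and Scel (4.56-fold, -2.19; -1.56 with normexp) were lower, against 5.39%. Sprr2f was 1.07-fold higher (0.10). Both comparisons share the Trp53 loss array.

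Trp53 loss was also compared with control, on the same Trp53 loss array that both comparisons above share. The control carried the empty vector pLKO.1, which the source label of the Trp53 loss culture does not name, and lay in another slide row. Vector and slide row cannot be told apart from the loss here. Of 5 genes measured, Sprr2f was 12.3-fold lower (-3.63) and Sprr1a 3.44-fold lower (-1.78), against 7.16% of 14361 genes. Tgm1 was 2.32-fold higher (1.21; 0.62 with normexp), against 6.17%. Scel was 1.18-fold higher (0.24). The second Trp63 probe was 1.40-fold lower (-0.49), and the other 5 genes were not well above background on either array.

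Some contrasts pool arrays, with limma over all genes and Benjamini-Hochberg adjustment. Genotype served as a block for tumour-derived minus before, and stage for Pik3ca minus Apc. Each of these fits held 4 arrays and left 1 residual degree of freedom. A tumour-derived culture is related to its source, so the 2 arrays of a genotype are not independent replicates. The SE of these fits does not measure the spread between independent cultures. Over both stages, Sprr1a was 4.35 ± 0.33 log2 units higher in Pik3ca/Trp53 than in Apc/Trp53 (SE, 2 arrays each) and Sprr2f 4.06 ± 0.29 higher, with both Pik3ca/Trp53 arrays above both Apc/Trp53 arrays for each. The limma adjusted p was 0.819 for both, so neither passed 0.05, and the smallest adjusted p of the 5 of these genes tested ranged from 0.662 to 0.831 over the alternatives. None of 14219 genes passed in limma (0%), and 744 had an unadjusted p under 0.05. Tumour-derived minus before inoculation gave 1.37 ± 0.33 for Sprr1a and -1.06 ± 0.29 for Sprr2f (limma adjusted p 0.996 each), in the same direction in both pairs. It gave 0.74 ± 1.95 for Tgm1 and 0.54 ± 1.35 for Scel (limma adjusted p 0.998 each), and again 0 of 14219 genes (0%) passed, with 552 under an unadjusted p of 0.05. The 3 cultures with Trp53 loss before inoculation against control gave 0 of 15025 genes (0%), with 1262 under an unadjusted p of 0.05. The control arm of this contrast is 1 array and the spread is that between 3 genotypes, so its SE and p do not measure the effect of Trp53 loss alone. Sprr2f was at -2.27 ± 1.92 and the second Trp63 probe at -0.63 ± 0.25 there (limma adjusted p 0.785 and 0.632), and that Trp63 probe was lower in 3 of 3 arrays.

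**Figure D5:**
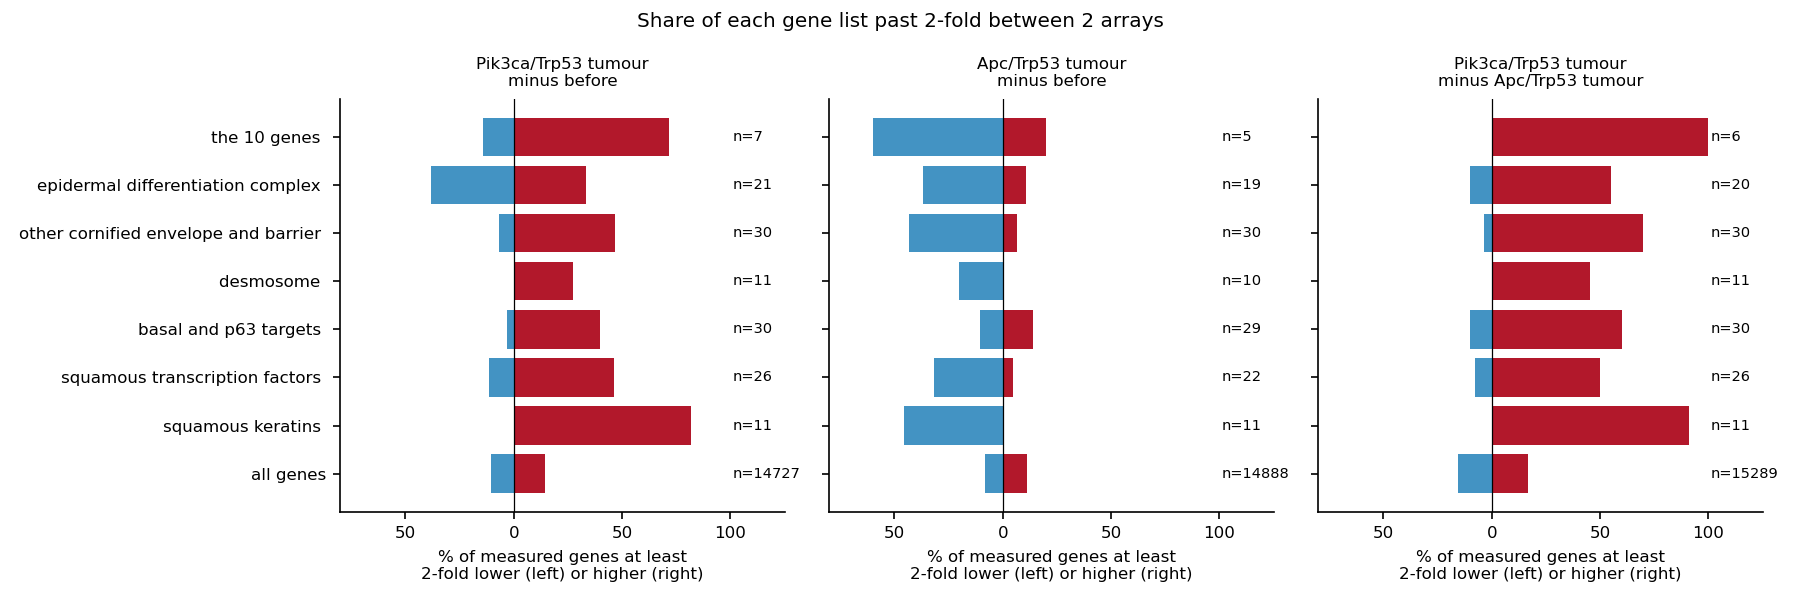
Share of each gene list that was at least 2-fold lower (blue, left of 0) or higher (red, right of 0), in percent of the list's measured genes (n), for 3 comparisons of 2 arrays. The bottom row shows all genes measured. Red bars dominate in Pik3ca/Trp53 tumour-derived minus before, apart from the epidermal differentiation complex, and blue bars in the lists of the Apc/Trp53 pair, apart from the basal and p63 targets.

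Lists of genes around these 10 were described in the same way. Unless stated otherwise, the genes named are among the 3 largest rises or falls of their list, of genes detected on both arrays. In the Pik3ca/Trp53 tumour-derived organoids, 9 of 11 measured squamous keratins were at least 2-fold higher than before inoculation and none lower (median 3.25, 2.83 with dim signals at the limit, all genes -0.06), against 14.5% and 10.6% of all genes. Krt14, the keratin of basal cells and a textbook p63 target, stood at 5.52 against -2.36 before (235-fold), Krt17 at 4.23 against -3.16 (168-fold) and Krt6a at 3.93 against -1.34 (38.7-fold). Of 30 basal and p63-bound target genes, 12 were 2-fold higher and 1 lower (median 0.75), among them Pdpn (24.9-fold higher), the luminal and hair follicle regulator Gata3 (4.33-fold) and the 14-3-3 protein gene Sfn (4.08-fold). Of 30 measured genes of the envelope and barrier outside the epidermal differentiation complex, 14 were higher and 2 lower (median 0.61), among them Serpinb5 (24.9-fold higher), Ly6d (12.8-fold) and Anxa8 (8.96-fold). Of 26 squamous transcription factors 12 were higher and 3 lower, with Elf5 11.2-fold, Cebpa 7.81-fold and Grhl1 6.30-fold higher. The 3 lower ones were Maf (4.92-fold), Hopx (2.75-fold) and Msx2 (2.51-fold). Of 11 desmosome genes 3 were higher, Pkp1 by 7.17-fold. In the epidermal differentiation complex 7 of 21 were higher and 8 lower (median -0.12). S100a8, a calprotectin subunit, was 27.1-fold higher there, and Sprr2d 5.0-fold, Lce3c 4.19-fold and Sprr2g 3.88-fold lower. Some genes above background only in the tumour-derived array of this pair had larger bounds (chosen after their values were seen). Among them were Krt5, the partner keratin of Krt14, at least 208-fold higher, Tfap2c at least 76.3-fold, Trim29 at least 46.3-fold and Pitx1 at least 33.4-fold. Outside the pair, Krt5 and Trim29 were detected in Apc/Trp53 before inoculation, and Trim29 in control. Pitx1 was detected in control, with Trp53 loss and in Apc/Trp53 tumour-derived organoids, at least 11.8-fold higher there than in their source.

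Of the Apc/Trp53 tumour-derived organoids' 11 measured keratins, 5 were at least 2-fold lower than before inoculation and none higher (median -0.99), against 8.23% of all genes lower and 11.1% higher. Of the 30 other envelope and barrier genes, 13 were lower and 2 higher (median -0.60), with Asprv1, an epidermal protease, 10.3-fold and Cysrt1 8.87-fold lower. Of 19 epidermal differentiation complex genes 7 were lower and 2 higher, with Lce3c 7.89-fold lower, and of 22 transcription factors 7 were lower and 1 higher, with Grhl3, a regulator of the envelope's late steps, 5.39-fold lower. Of 29 basal and p63-bound targets 4 were higher and 3 lower (median -0.22), shares near those of all genes. The median over all genes was -0.05. Between the tumour-derived organoids, Pik3ca/Trp53 was at least 2-fold higher than Apc/Trp53 for 10 of 11 keratins, 21 of 30 other envelope and barrier genes, 18 of 30 basal and p63-bound targets, 13 of 26 transcription factors, 11 of 20 epidermal differentiation complex genes and 5 of 11 desmosome genes. Lower were 0, 1, 3, 2, 2 and 0. Of all genes, 16.9% were higher and 15.7% lower. Krt14 was 710-fold, Pkp1 32.6-fold, Ly6d 30.8-fold and the lipoxygenase gene Alox12b 29.4-fold higher. Lower were the transcription factors Prdm1 (7.88-fold) and Msx2 (5.74-fold), as well as Slc7a5 (4.68-fold), Tgm5 (3.61-fold) and Lor (2.90-fold).

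Before inoculation, 9 of 20 measured epidermal differentiation complex genes were at least 2-fold higher with Pik3caH1047R than with Trp53 loss alone and 2 lower (median 0.94, all genes -0.01), against 9.03% and 8.67% of all genes. Among them were Sprr2a3 (13.5-fold), Sprr2g (10.6-fold), Sprr2k (5.50-fold) and Sprr2e, detected with Pik3caH1047R only of these 2 arrays and at least 8.04-fold higher (Sprr2e chosen after its values were seen). With Apc580D, 7 of 19 were higher and none lower (median 0.54, 0.11 with dim signals at the limit), against 5.27% and 5.39% of all genes, among them Lor (9.52-fold), Sprr2a3 (5.76-fold) and Lce3b (5.31-fold). With Trp53 loss alone, 8 of 19 were at least 2-fold lower than in control and none higher, against 7.16% and 6.17% of all genes. The median was -0.85 (all genes 0.07), and among the lower ones were Sprr2a3 (7.64-fold), S100a3 (4.49-fold) and S100a14 (4.08-fold). These comparisons all use the single Trp53 loss array, where Sprr2a3 had its lowest level (0.28), so they are not independent of each other. Of 10 desmosome genes none was past 2-fold with either allele, and with Trp53 loss against control Pkp4 was 2.44-fold higher and Pkp1 2.73-fold lower.

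Markers of other cell types stood beside these values. Epidermal keratinocyte markers had a summed level of 67 (in units of the array's 75th percentile) in the Pik3ca/Trp53 tumour-derived organoids, where 6 of 11 were well above background, Krt5, Krt14, Krt10, Lor, Krtdap and Cdsn. On the other 5 arrays the sum lay between 2.53 and 8.97, with 3 to 7 of 11 above background. Krt14 (45.8) and Krt5 (16.7) made up most of the 67, and the other 9 markers summed to 4.55, within the 2.46 to 8.63 of the other arrays. Krt1, Krt2, Flg2 and Hrnr, which mark cornifying epidermis, were not well above background on any array. Other markers of the same list were: Lor and Krt10 on all 6 arrays, Krtdap on 5 and Cdsn on 4. Of 9 fibroblast markers, 4 (Col1a1, Col1a2, Pdgfra and Postn) were above background in the Pik3ca/Trp53 tumour-derived organoids, and Col3a1, Dcn, Lum, Pdgfrb and Thy1 were not. The summed level of the 9 was 8.76 there, against 0.15 to 0.38 on the other arrays. Pdgfra was also above background in Pik3ca/Trp53 before inoculation, and Pdgfra and Pdgfrb in Apc/Trp53 tumour-derived organoids. Of 7 adipose and skeletal muscle markers, Fabp4 was above background in the Pik3ca/Trp53 tumour-derived organoids and in Apc/Trp53 before inoculation. Ckm was above background in Apc/Trp53 tumour-derived organoids only, and Adipoq, Plin1, Acta1, Myh1 and Myh4 on no array. In the Pik3ca/Trp53 tumour-derived organoids the summed level of that list was 3.36, against 0.10 to 0.76 elsewhere. Of 10 leukocyte markers, 5 were above background there and 5 or 6 on the other arrays, with a summed level of 15.9 against 5.57 to 27.2. The part of these cells in the Trp63, Bnc1, Tgm1 and keratin values was not tested, and in these bulk samples more cells of a type and more RNA per cell cannot be told apart.

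The genes most like each of the 5 broadly detected ones over the 6 arrays were taken among 4595 candidates detected on 4 or more arrays that varied by an SD of 0.5 or more, by Pearson's r as a description. For Sprr1a they were Tmem74b (r of 0.989), Plod2 (0.972) and B3gnt3 (0.970), and for Sprr2f Akr1c12 (0.977), Wdr38 (0.974) and Omp (0.965). Akr1c12, for example, was at 1.82 in Pik3ca/Trp53 tumour-derived and 2.61 before, 0.74 in Apc/Trp53 tumour-derived and 1.03 before, 0.94 with Trp53 loss and 2.32 in control. For Tgm1 they were 9530077C05Rik (0.971), Kcnk5 (0.971) and Mtss2 (0.963), for Scel Gm19705 (0.990), Dusp7 (0.989) and Plcd3 (0.989), and for the second Trp63 probe, whose own SD was only 0.30, Rab11fip1 (0.959) and Pbx4 (0.947). The points share 1 slide, and 6 arrays leave many genes with a high r.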

How the data were processed

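Total RNA of 6 cultures was labelled with Cy3 and hybridised to 6 Agilent arrays, 1 for each group. Spot intensity was deposited as scanner output of Agilent Feature Extraction 11.0.1.1 (per the file headers and the submitters' processing notes), background-subtracted and detrended within the array, with no scaling between arrays. A deposited table of log2 values for 2047 probes held 2 of the 14 probes, those of Sprr2f and Ivl. Its differences equal those of the log2 intensities (r of 1.00, slope 1.00), its centring stays unknown, and its column medians were -0.05 (Pik3ca/Trp53 tumour-derived), 0.15 (before), -0.20 (Apc/Trp53 tumour-derived), -0.32 (before), -0.01 (Trp53 loss) and 0.03 (control).

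Control and outlier-flagged spots were left out, spots of a probe were averaged, and log2 signals were centred on each array's 75th percentile. Probes were named through RefSeq accessions. A gene's difference is the mean over its probes detected (well above background) on either array; a dim signal was set to the array's background limit to give a bound. "At least 2-fold" means a log2 difference of at least 1. limma 3.58.1 (R 4.3.3) fitted the pooled contrasts, with Benjamini-Hochberg adjustment at 0.05, and was tested on simulated data; Python 3.11.15 with pandas 2.3.3 and numpy 2.4.6 did the rest. The files hold median, not mean, spot signals, so normexp used those. The 10 genes, the lists and the naming rule (the 3 largest differences each way of each list, and the 3 most alike genes, of which 1 is not reported here) were chosen with earlier results of these data known. Listed names with no mouse gene (Pi3) were left out. Promoters are RefSeq's, in build GRCm38.p6. The precision is limited by the number of arrays.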

Additional observations from a re-analysis of the deposited data

Results flagged for a closer look

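Tgm1 and Scel were past 2-fold in opposite directions in the 2 pairs of tumour-derived organoids and their source. Tgm1 differed by 3.96 log2 units in Pik3ca/Trp53 and by -2.49 in Apc/Trp53. Scel differed by 2.74 in Pik3ca/Trp53 and by -1.67 in Apc/Trp53. With 1 array per group, the difference between the pairs was not tested. For Scel the sign was the same on all 3 probes in each pair. Trp53 probe signal was well above background in the Pik3ca/Trp53 tumour-derived array and in the Apc/Trp53 array before inoculation. These are the arrays with the higher Tgm1 level of each pair. In control the Trp53 probe stood at 1.46, its highest level, and Tgm1 at -2.68, its lowest. With Trp53 loss they stood at -6.00 and -1.47. A part of the Trp53 signal in the Tgm1 values was not tested.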

How the results depend on the processing

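The block on genotype pairs each tumour-derived array with its source, and without it 0 genes passed as with it. Leaving an array out of the fits with a genotype or stage block leaves no residual degree of freedom, so that was not run. Of 210 recomputed values past 2-fold, 14 came inside 2-fold, 4 of them with a change of sign, and 1 of 66 others passed it. The 4 were Trp63 at -0.10 (Pik3ca/Trp53 tumour-derived minus before) and -0.45 (minus Apc/Trp53 tumour-derived), with its brightest probe and with probes above background on both arrays, which leave out the first Trp63 probe by construction. Counts of the 10 genes past 2-fold moved by over 1.5 times in 2 cases: 3 in place of 6 for Pik3ca/Trp53 tumour-derived minus before with probes above background on both arrays, and 2 in place of 4 for the Apc/Trp53 pair with normexp correction; the cause of that change was not tested. With arrays scaled to their medians, the median difference over all genes was 0.23 (Trp53 loss minus control), -0.18 and -0.37 (Pik3ca/Trp53 and Apc/Trp53 tumour-derived minus before) and 0.19 (between tumour-derived), against 0.07, -0.06, -0.05 and 0.01. The share of higher genes among those past 2-fold was then 56.9% against 46.3% for Trp53 loss and 37.5% against 57.3% for the Apc/Trp53 pair. Normexp correction also cut the genes past 2-fold over all genes, for example to 289 higher and 357 lower, against 886 and 1028, for Trp53 loss minus control. The limma contrasts called 0 genes under every alternative except that 76 genes passed for Trp53 loss minus control with quantile normalization, none of them of the 10. Without each culture in turn that contrast called 0 genes, and without Pik3ca/Trp53 Sprr2f moved to -3.57 (limma adjusted p 0.238). The second percentile, over named probes only, was chosen after seeing the data and changed no count by over 1.5 times.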
